A study of Homo sapiens with 4 samples.

Results

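The long RNAs described here are the spliced transcripts of small nucleolar RNA (snoRNA) host genes. They were picked by name, as every gene with a symbol of the form SNHG and a number, plus GAS5, EPB41L4A-AS1, ZFAS1 and DANCR. This rule was set with earlier results of these data known. The rule found 32 genes among the 62696 of each deposited count table, and 28 of the 32 passed the minimum level for comparison, a mean of at least 1 count per 1000000 (CPM), as did 15880 genes in all. The cells were NT2 (NTERA-2), a human embryonal carcinoma line of wild-type genotype in the 1 empty vector library and labelled as HYDIN2 knockdown in the 3 others, grown in the same serum-containing medium. HYDIN2 is a partial copy of the cilia gene HYDIN. How the knockdown was made, and whether its 3 replicates were separate cultures, is not given in the sources used here, and any spread between them may be technical. Below, "control" is the empty vector library, and replicates 1, 2 and 3 are the libraries labelled as knockdown.

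SnoRNAs guide the methylation and pseudouridylation of ribosomal RNA. Most human snoRNAs are cut out of introns, and in an SNHG gene the intron carries the lasting product while the joined exons code for little or no protein. Many of these exon transcripts begin, like ribosomal protein mRNAs, with a pyrimidine tract that links their translation to growth signals, and they are loaded on ribosomes and then removed by nonsense-mediated decay. Their level therefore depends on transcription, on the speed of translation and on decay, and GAS5 was named for its accumulation in growth-arrested cells.

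The first transcribed bases of 7 members are printed so that starts with and without a pyrimidine-rich CTTT can be seen in genes that went in different directions below. Each line has 20 bases before and 50 after the RefSeq start on GRCh38.p14, 5′ to 3′ on the gene's strand, with every CTTT in capitals. SNHG19 (chr16:2155309-2155378, minus strand) and SNHG16 (chr17:76557744-76557813, plus) were lower in all labelled knockdown libraries. SNHG1 (chr11:62855836-62855905, minus), SNHG11 (chr20:38446634-38446703, plus) and EPB41L4A-AS1 (chr5:112160506-112160575, plus) were higher in 2 of the 3. SNHG5 (chr6:85678684-85678753, minus) had the opposite pattern, and ZFAS1 (chr20:49278622-49278691, plus) was moderately lower throughout.
SNHG19: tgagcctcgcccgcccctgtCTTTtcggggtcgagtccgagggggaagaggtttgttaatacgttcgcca
SNHG16: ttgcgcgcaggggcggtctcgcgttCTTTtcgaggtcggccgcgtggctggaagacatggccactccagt
SNHG1: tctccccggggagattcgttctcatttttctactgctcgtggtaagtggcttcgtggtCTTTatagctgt
SNHG11: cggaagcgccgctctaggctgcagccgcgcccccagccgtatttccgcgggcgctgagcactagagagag
EPB41L4A-AS1: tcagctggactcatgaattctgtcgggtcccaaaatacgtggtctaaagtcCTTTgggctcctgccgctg
SNHG5: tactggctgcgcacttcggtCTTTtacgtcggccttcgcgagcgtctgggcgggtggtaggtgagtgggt
ZFAS1: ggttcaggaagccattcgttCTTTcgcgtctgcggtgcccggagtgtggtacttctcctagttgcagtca
The table of RefSeq starts held 28 of the 32 members and 24 of the 28 that were compared. CTTT on the transcribed strand was found in this window in 15 of those 24 (62.5%), against 24.1% of 35116 promoters. It lay between 5 bases before and 9 bases after the start in 8 of the 24 (33.3%), against 6.34% of all promoters. SNHG19, SNHG5, ZFAS1 and SNHG16 have it at the start so defined, SNHG1 and EPB41L4A-AS1 have it further in, and SNHG11 has no CTTT in this window. Among the 3 members with a RefSeq start that were at least 2-fold higher in replicates 1 and 2, 2 held CTTT in the window, and 13 of the other 21 did. The motif was chosen after these starts had been read, and a match is not evidence of a tract in use.

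The control had 25181737 counts, and replicates 1, 2 and 3 had 62904698, 61627449 and 28552070. A floor of 3 counts was worth 0.125 CPM in the control and from 0.0482 to 0.096 CPM in the others. HYDIN2 itself, whose reads are hard to tell from those of HYDIN, had 12 counts in the control and 150, 112 and 11 in the replicates, or 0.50 CPM against 2.41, 1.88 and 0.352 CPM. It was higher in replicates 1 and 2 and close to the control in replicate 3, which goes against the label, so every direction below is that of a library labelled knockdown. The count columns are headed with a LacZ control and with GKAP_KIF27 sets rather than HYDIN2. Replicate 3 stood apart: 19.3% of all compared genes lay at least 2-fold from both replicates 1 and 2 in the same direction, while replicates 1 and 2 differed that much in 0.302%. Embryonal carcinoma markers were present in every library, with all 10 of 10 compared and a summed level of 6532 CPM in the control and between 4075 and 7278 CPM in the replicates. Members are therefore described per library, and the counts of genes past a fold and the list medians named below are also given without replicate 3.

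Levels were compared between genes per kilobase of annotated exon, which for genes with many transcript forms understates the level of the main one. SNHG1 (ENSG00000255717.9; chromosome 11, 62851988 to 62855914, minus strand) and GAS5 (ENSG00000234741.10; chromosome 1, 173863900 to 173868882, minus strand) had the highest mean of the group means on this scale. GAS5 had 75.9 CPM per kilobase in the control and 93.7, 106 and 47.7 in replicates 1, 2 and 3. SNHG1 had 62.8 CPM per kilobase against 243, 268 and 44.6, so it stood far above GAS5 in replicates 1 and 2 and below it in the other libraries. In the control SNHG3 also lay above SNHG1, at 66.6 CPM per kilobase. SNHG3, SNHG8, SNHG29, DANCR, SNHG16 and SNHG14 followed, with means of the group means from 47 down to 20.1 CPM per kilobase. The order of these neighbours was not stable, since their libraries overlapped: SNHG3 ran from 19.1 to 66.6 and SNHG29 from 28.6 to 50.5. SNHG14 took the most counts of any member, 17121 of the 56453 in the control, and its exons add up to 43324 bases. SNHG20, SNHG31 and SNHG32 were the least abundant that were compared, at 0.404, 0.547 and 0.601 CPM per kilobase. SNHG20 shares exons with SEC14L1, and SNHG32 with another gene, on the same strand, so their low counts are uncertain. Of the 4 left out, SNHG28 had 0 counts in every library, SNHG27 had 2 counts in replicate 1 and 0 elsewhere, SNHG22 had between 0 and 8, and SNHG21 between 10 and 40.

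**Figure D1:**
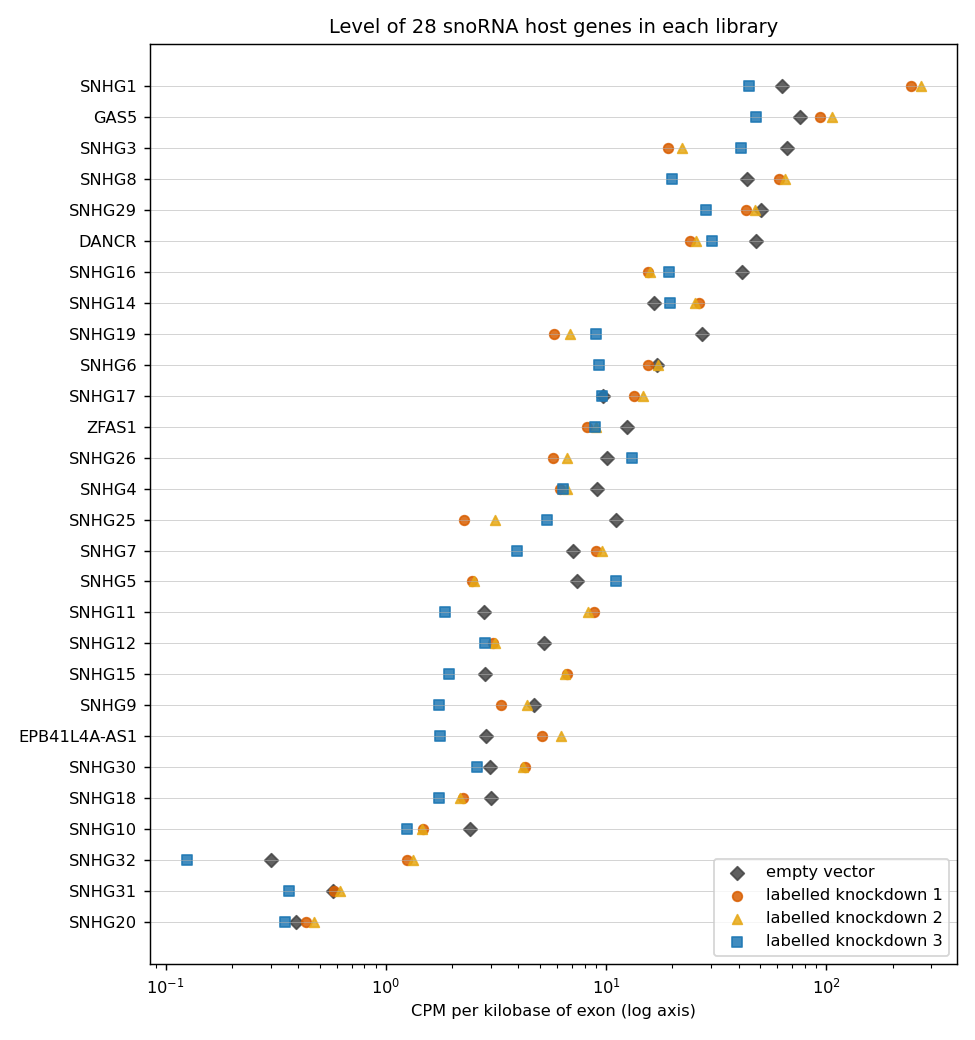
CPM per kilobase of exon (log axis) for the 28 compared snoRNA host genes, 1 point per library. SNHG1 lies to the right in labelled knockdown replicates 1 and 2, at 243 and 268, and SNHG5 lies to the left in the same libraries.

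Together the 32 genes took 0.224% of all counts in the control, 0.308% and 0.317% in replicates 1 and 2, and 0.207% in replicate 3. Without SNHG14 these shares were 0.156% in the control and 0.195%, 0.210% and 0.114% in replicates 1, 2 and 3. SNHG1 took 5662 of the 56453 counts of the 32 genes in the control. It took 56735 of 193952 in replicate 1, 60187 of 195108 in replicate 2 and 5232 of 58982 in replicate 3. The sum over the 32 genes hides opposite differences. Relative to the control, 13 of the 28 genes were higher in replicate 1, 14 in replicate 2 and 3 in replicate 3. The share of all compared genes above the control in each library was not computed. The median log2 difference over the 28 was -0.19, -0.03 and -0.68 in the 3 replicates, beside 0.03, 0.05 and -0.15 over all compared genes. The mean of the replicates had a median of -0.34 over the 28. It was -0.15 without replicate 3 and -0.01 after smoothed trends with length and with GC content of the transcripts were removed, a step in which short transcripts are compared with short ones.

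Replicates 1 and 2 agreed closely, with a median size of the difference between them of 0.10 log2 and 0 of the 28 genes 2-fold apart. Replicate 3 differed from their mean by a median size of 0.76 log2 over the 28 genes, against 0.53 over all compared genes. Of the 28, 7 were at least 2-fold lower in replicate 3 than in both replicates 1 and 2 (background 13.1%) and 1 was that much higher (background 6.2%). In 16 of the 28 genes the SD over the 3 replicates was at least as large as the mean difference. That share over all compared genes was not computed. The median SD was 0.44 log2 over the 28 genes and 0.32 over all compared genes. Of the 28 genes, 12 were lower in all 3 replicates, 12 were higher in replicates 1 and 2 and lower in replicate 3, and 2 had the opposite of that. SNHG14, higher in all 3, and SNHG6, on different sides of the control in replicates 1 and 2, fell outside these 3 patterns, which the scatter of replicates 1 and 2 against replicate 3 shows. Over all compared genes, 34.2% were lower in all 3 replicates and 30.1% were higher in all 3. The share of all compared genes with replicate 3 on the other side of the control from replicates 1 and 2 was not computed. The 12 and 2 genes of that kind are therefore not read as particular to the host genes. Genes higher in replicates 1 and 2 and lower in replicate 3 included SNHG17, at -0.01 in replicate 3. They also included SNHG20 and SNHG31, whose counting intervals included 1 in every library.

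**Figure D2:**
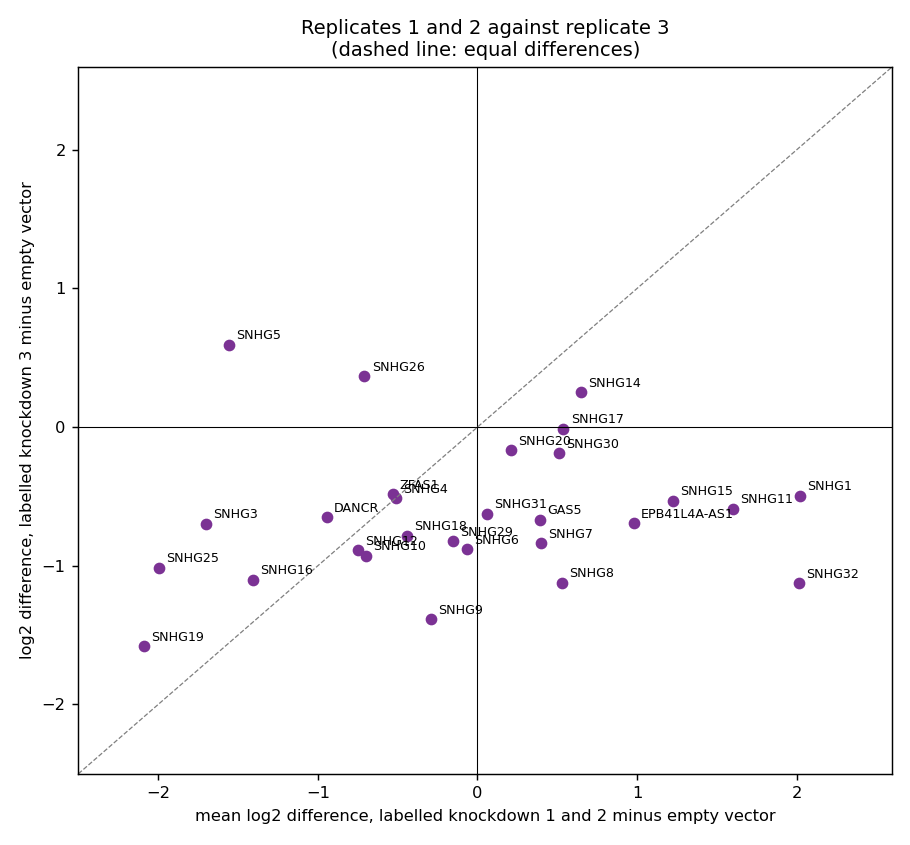
Mean log2 difference from the control for labelled knockdown replicates 1 and 2 (x axis) against that in replicate 3 (y axis), 1 point per gene, with a dashed line of equal differences. SNHG19 and SNHG16 are low on both axes, SNHG1, SNHG11, SNHG15 and SNHG32 are high on the x axis alone, and SNHG5 is low in replicates 1 and 2 and above 0 in replicate 3.

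The first pattern was a lower level in every labelled knockdown library. It held for 12 of the 28 genes at any size, where 34.2% of all compared genes did so, and 1 gene, SNHG14, was higher in all 3 (background 30.1%). SNHG19, SNHG16 and SNHG25 were at least 2-fold lower in each library (3 of 28, background 2.72%), and none was 2-fold higher in each (background 3.65%). With a limit of 1.5-fold, SNHG3, DANCR, SNHG12 and SNHG10 joined them, giving 7 of 28 lower (background 9.61%) and 0 higher (background 10.0%). Total-count or upper quartile scaling left 1 of the 3 genes that passed 2-fold, SNHG19 (backgrounds 1.97% and 2.54%). Removal of the length and GC trends left 0 of them (background 1.45%). It left 2 of the 7 that passed 1.5-fold, SNHG16 and SNHG19 (background 5.93%).

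SNHG19 (ENSG00000260260.3; chromosome 16, 2154797 to 2155358, minus strand) is a short host RNA with 342 bases of exon, and it had 9.29 CPM in the control, against 1.98, 2.35 and 3.07 CPM in replicates 1, 2 and 3. All 3 replicates were well below the control, at ratios of 0.213 (0.153 to 0.293), 0.252 (0.184 to 0.343) and 0.331 (0.231 to 0.468), with 95% counting intervals in parentheses. Its mean log2 difference was -1.92 ± 0.32 (SD, n = 3). SNHG16 (ENSG00000163597.17; chromosome 17, 76557766 to 76565348, plus strand), host of the SNORD1 snoRNAs, had 222 CPM in the control, against 83.1, 84.6 and 104 CPM in replicates 1, 2 and 3. The labelled libraries lay close together and apart from the control, with log2 differences of -1.42, -1.39 and -1.10. After trend removal they were -1.47, -1.45 and -0.99, nearly as large. SNHG25, host of SNORD104 and only 278 bases of exon, had 74 counts in the control and 39, 52 and 47 in the deeper replicate libraries, or 3.08 CPM against 0.626, 0.871 and 1.5 CPM. Its replicate 3 difference of -1.01 sat at the 2-fold limit and was 0.01 after trend removal.

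SNHG3 (ENSG00000242125.3; chromosome 1, 28505980 to 28510892, plus strand) shares exons with RCC1 on the same strand, so reads of the 2 genes may be split or lost. It had 272 CPM in the control, against 78, 90.3 and 168 CPM in replicates 1, 2 and 3, a stepwise difference with replicate 3 between the control and the other replicates. DANCR (ENSG00000226950.8; chromosome 4, 52712404 to 52720351, plus strand), a host RNA known for holding back differentiation of progenitor cells, had 109 CPM in the control, against 54.8, 58.6 and 69.5 CPM in replicates 1, 2 and 3. All 3 replicates were below the control without reaching the 2-fold limit in each, at ratios of 0.502 (0.467 to 0.54), 0.538 (0.50 to 0.578) and 0.638 (0.588 to 0.691). After trend removal replicate 3 no longer differed downward, at 0.09 log2. SNHG12, which lies beside TRNAU1AP and overlaps its exons in the opposite sense, had 22.3 CPM against 13.1, 13.4 and 12 CPM in the same order. Its mean log2 difference was -0.79 ± 0.08 (SD, n = 3), and -0.40 after trend removal. Every SD given here is over differences from the same control library, so it holds no variation of the control. SNHG10 was lower by a similar amount, at 4.67 CPM against 2.87, 2.85 and 2.43 CPM, with a mean log2 difference of -0.77 ± 0.13 (SD, n = 3). That mean was -0.37 after trend removal.

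ZFAS1 and SNHG4 were lower by a smaller amount that was alike in the 3 replicates. ZFAS1 (ENSG00000177410.13; chromosome 20, 49278178 to 49295738, plus strand), transcribed away from the start of ZNFX1, had 27.8 CPM in the control, against 18.4, 20.2 and 19.9 CPM in replicates 1, 2 and 3, and a mean log2 difference of -0.52 ± 0.07 (SD, n = 3). SNHG4, which shares exons with MATR3, had 40.8 CPM against 27.7, 29.6 and 28.6 CPM, with a mean of -0.51 ± 0.05 (SD, n = 3). After trend removal the mean was -0.04 for ZFAS1, with replicate 3 at 0.29, and -0.30 for SNHG4. SNHG29 (ENSG00000175061.20; chromosome 17, 16438822 to 16478678, plus strand), named LRRC75A-AS1 in GENCODE 29, had 190.0 CPM against 163, 179 and 107 CPM, so most of its difference was in replicate 3. SNHG18 and SNHG9 completed the 12, with mean log2 differences of -0.56 ± 0.20 (SD, n = 3) and -0.66 ± 0.66 (SD, n = 3); SNHG9 differed from the control by more than counting error in replicate 3 alone.

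The second pattern was a higher level in replicates 1 and 2 with no such level in replicate 3. SNHG1, SNHG11, SNHG15 and SNHG32 were at least 2-fold higher in both (4 of 28, background 9.54%) and 5 genes, SNHG3, SNHG5, SNHG16, SNHG19 and SNHG25, were 2-fold lower in both (background 5.5%). These 4 were singled out after their values were seen, except SNHG1, which the level rule names. At 1.5-fold, EPB41L4A-AS1 and SNHG14 joined them (6 of 28, background 20.3%), and 9 genes were lower (background 15.5%). These 6 are close to the share that the background percentage gives over all compared genes.

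SNHG1, host of the SNORD22 and SNORD25 to SNORD31 group, had 236 CPM in the control, against 911, 1008 and 167 CPM in replicates 1, 2 and 3. Replicates 1 and 2 were far above the control, and replicate 3 was below it. The ratios to the control were 3.86 (3.72 to 4.02), 4.27 (4.11 to 4.44) and 0.71 (0.673 to 0.749), and trend removal left log2 differences of 2.01, 2.12 and -0.14. Replicates 1 and 2 differed from each other by more than counting error, since their intervals do not overlap. The mean log2 difference over all 3, 1.18 ± 1.45 (SD, n = 3), was smaller than its spread. SNHG11 (ENSG00000174365.22; chromosome 20, 38446578 to 38450921, plus strand) had 7.87 CPM in the control, against 24.9, 23.2 and 5.22 CPM in replicates 1, 2 and 3. SNHG15 (ENSG00000232956.10; chromosome 7, 44983023 to 44986961, minus strand), a short-lived host RNA that builds up under cell stress, had 10.2 CPM against 24.1, 23.9 and 7.07 CPM in the same order. Both repeated the order of SNHG1, with the control between replicate 3 and the other replicates. SNHG32 (ENSG00000204387.14; chromosome 6, 31834608 to 31839766, plus strand), classed as protein coding under its older name C6orf48 in GENCODE 29, had only 13 counts in the control against 140, 143 and 7. Its ratios were 4.15 (1.87 to 11.2), 4.42 (1.99 to 11.9) and 0.414 (0.0785 to 1.76), and the last interval includes 1. SNHG32 shares exons with another gene on the same strand, so its counts are uncertain. EPB41L4A-AS1 (ENSG00000224032.9; chromosome 5, 112160526 to 112164276, plus strand), which shares exon sequence with the opposite-strand gene EPB41L4A, had 9.54 CPM in the control, against 17.1, 20.8 and 5.89 CPM in replicates 1, 2 and 3.

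**Figure D3:**
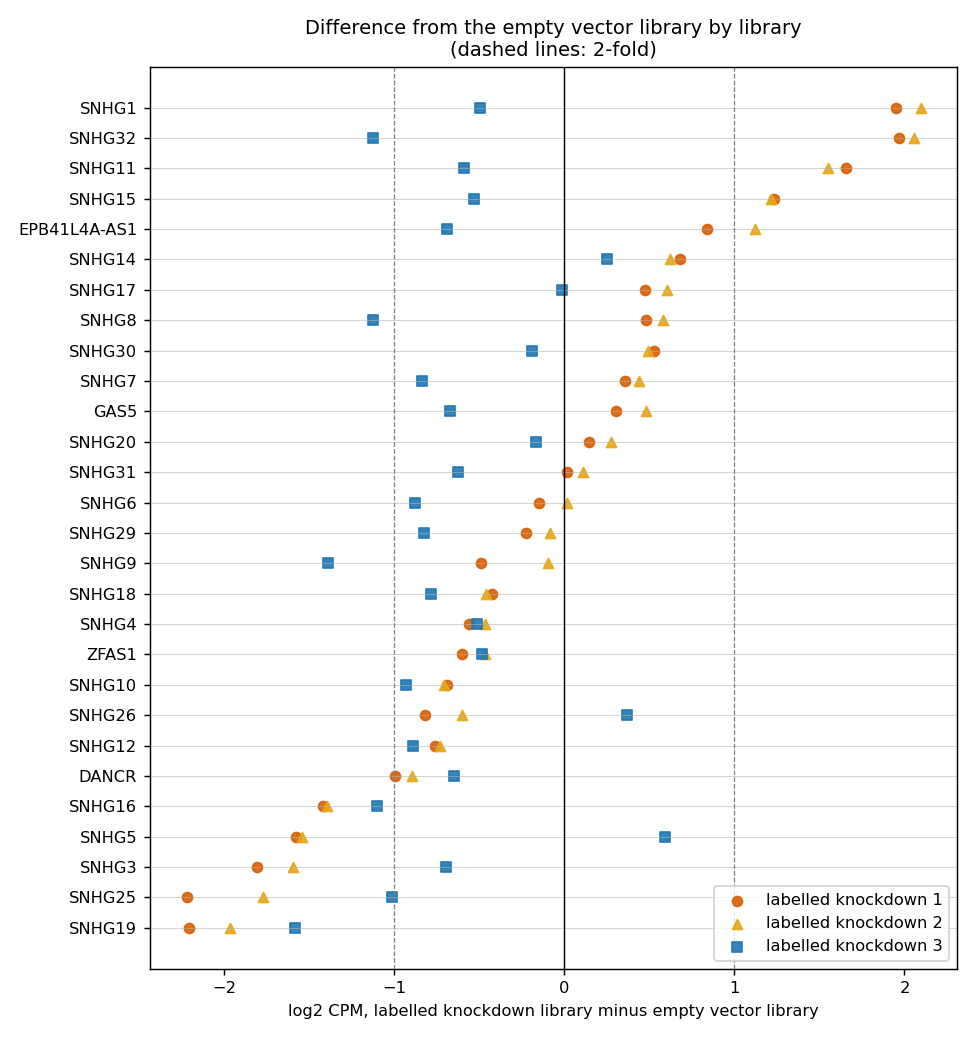
Log2 CPM of each labelled knockdown library minus the control for 28 snoRNA host genes, ordered by the mean of replicates 1 and 2, with dashed lines at 2-fold. Circles and triangles (replicates 1 and 2) run from -2.22 for SNHG25 to 2.10 for SNHG1, while 25 of the 28 squares (replicate 3) lie below 0. The median in replicate 3 over all compared genes was also below 0, at -0.15.

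GAS5, SNHG8, SNHG7, SNHG17 and SNHG30 took the same direction at smaller sizes. GAS5 had 276 CPM in the control, against 340.1, 384 and 173 CPM in replicates 1, 2 and 3. Its ratios were 1.23 (1.19 to 1.28) and 1.39 (1.34 to 1.45) in replicates 1 and 2 and 0.629 (0.597 to 0.662) in replicate 3. The mean of 0.04 ± 0.62 (SD, n = 3) log2 hides these 2 directions, and it changed sign to -0.11 without replicate 1 and to -0.19 without replicate 2. SNHG8 (ENSG00000269893.10; chromosome 4, 118278709 to 118279823, plus strand), host of SNORA24, was more divided still, at 40.3 CPM against 56.2, 60.2 and 18.5 CPM. In replicate 3 it was more than 2-fold lower, with a ratio of 0.459 (0.395 to 0.532). SNHG7 had 30.7 CPM against 39.2, 41.6 and 17.2 CPM, and SNHG17, host of SNORA71 snoRNAs, had 40.5 CPM against 56.2, 61.6 and 40.2 CPM. In SNHG17 replicate 3 matched the control within counting error, with a ratio of 0.992 (0.88 to 1.12). SNHG6 (ENSG00000245910.9) had 21.3 CPM against 19.2, 21.6 and 11.6 CPM, with replicates 1 and 2 within counting error of the control and replicate 3 below it.

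SNHG14 (ENSG00000224078.15; chromosome 15, 24978583 to 25419462, plus strand) is the long imprinted transcript of the Prader-Willi region, which carries the SNORD115 and SNORD116 arrays and runs antisense over UBE3A. It had 713 CPM in the control, against 1142, 1097 and 848 CPM in replicates 1, 2 and 3, and was the only one of the 28 genes above the control in every labelled library. The log2 differences were 0.68, 0.62 and 0.25. It is also by far the longest member, and trend removal turned its mean from 0.52 to -0.26. It shares exons with SNRPN, so its counts are uncertain.

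The third pattern ran the other way, and 2 genes had it. SNHG5 (ENSG00000203875.13; chromosome 6, 85660950 to 85678748, minus strand), host of SNORD50 snoRNAs, had 20.6 CPM in the control, against 6.87, 7.07 and 31.1 CPM in replicates 1, 2 and 3. Replicates 1 and 2 were below the control and replicate 3 was above it, with ratios of 0.333 (0.276 to 0.402), 0.343 (0.284 to 0.414) and 1.51 (1.29 to 1.77). SNHG26 (ENSG00000228649.11; chromosome 7, 22854178 to 22861579, plus strand), host of SNORD93, had 26.6 CPM in the control, against 15.1, 17.5 and 34.3 CPM in replicates 1, 2 and 3, the same order at a smaller size. SNHG5 was the 1 gene at least 2-fold higher in replicate 3 than in both other replicates. SNHG20 and SNHG31 differed from the control by no more than counting error in any library, with counting intervals that included 1 in each. Their mean log2 differences were 0.09 ± 0.23 (SD, n = 3) and -0.17 ± 0.40 (SD, n = 3). For SNHG31 few counts left this unresolved: it had 29 in the control and 24 in replicate 3, a ratio of 0.636 (0.27 to 1.47). In replicate 3 alone, 6 of the 28 genes were at least 2-fold lower than the control (background 15.9%) and 0 were higher (background 11.3%).

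edgeR's quasi-likelihood test, run on all genes with Benjamini-Hochberg adjustment, called 0 of 29 snoRNA host genes and 0 of 26029 genes in all (background 0.0%). With 1 control library, the spread is that among the 3 replicates, and the control is taken to vary as they do. The smallest adjusted p among the 28 compared genes was 0.358, for SNHG16 and SNHG19. At an unadjusted p under 0.05 there were 6 of the 29, all lower (background 5.19% lower and 6.42% higher): SNHG16, SNHG19, DANCR, SNHG12, SNHG3 and SNHG25. The Wald test of DESeq2 called 0 of 28 host genes with an adjusted p, with 1.53% of all genes called and its smallest adjusted p among them 0.0505, for SNHG19. Without replicate 3, edgeR called 11 of 29 higher (background 23.5%) and 13 lower (background 21.2%), but the spread is then that between the closely matched replicates 1 and 2 alone.

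The snoRNAs inside these genes were looked up by position in GENCODE 29, as genes of that class within a member on the same strand. There were 144 such genes in 30 of the members, 84 of them in SNHG14. None matched in GAS5 or SNHG27; those of GAS5 were not analysed here. Only 21 of the 144 had a count in any library and 6 passed the minimum level. The 7 inside SNHG1 had 0 counts in every library, although SNHG1 had 60187 counts in replicate 2. How far RNAs this short were captured was not tested, nor whether their reads came from unspliced host RNA. The values below are therefore counts assigned to these genes and may not be levels of the finished snoRNA. Sequences of 2 of these 6 are printed as examples, from the hosts ZFAS1 and SNHG26. All 6 are set beside their hosts below. SNORD12C lies at chr20:49278940-49279028 on the plus strand of GRCh38 and SNORD93 at chr7:22856613-22856686 on the plus strand. Capitals mark the first box C letters, TGATGA, where present, and the last box D letters, CTGA; the transcribed strand of 266 SNORD transcripts under 150 bases held TGATGA in 76.7%.
SNORD12C: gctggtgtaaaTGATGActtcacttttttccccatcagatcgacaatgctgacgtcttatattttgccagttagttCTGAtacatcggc
SNORD93: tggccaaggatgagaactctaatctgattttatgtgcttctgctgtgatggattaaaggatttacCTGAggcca
SNORD93 does not have these exact box C letters. SNORD12C had 2.25 CPM in the control, against 0.642, 0.637 and 1.09 CPM in replicates 1, 2 and 3. Its counts were few, 54 in the control and 40, 38 and 34 in the replicates. It was at least 2-fold lower in each labelled library, whereas its host ZFAS1 had log2 differences of -0.60, -0.46 and -0.48 against -1.74, -1.75 and -1.02 for the snoRNA. SNORD93 had 2.29 CPM in the control, against 1.06, 0.838 and 2.98 CPM in replicates 1, 2 and 3. These values rest on 55 counts in the control and 66, 50 and 93 in the replicates. Like its host SNHG26, SNORD93 was highest in replicate 3 and below the control in replicates 1 and 2. SNORA73B, inside SNHG3, was the most abundant of the 6 by CPM, with 518 CPM in the control, against 250.1, 261 and 124 CPM in replicates 1, 2 and 3. SNHG3 was lowest in replicates 1 and 2, but SNORA73B was lowest in replicate 3. SNORA71B inside SNHG17 was lower in all 3 libraries, with log2 differences of -1.05, -0.73 and -0.88, while SNHG17 had 0.47, 0.61 and -0.01. SNORD116-17 inside SNHG14 had log2 differences of -1.55, -2.47 and -0.37 while SNHG14 was above 0 in each, and as one of many near-identical copies its counts are uncertain. SNORA74A inside SNHG4 had -1.04, 0.13 and 0.00. Over the 6, the median of the mean log2 difference was -1.13, and -0.49 after trend removal.

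Genes that start within 1000 bases of a member on the other strand can share its promoter region. SLC3A2, a subunit of amino acid transporters, starts 188 bases from SNHG1 and had log2 differences of 1.21, 1.18 and -0.05, beside 1.95, 2.10 and -0.49 for SNHG1. Both were higher in replicates 1 and 2 and not in replicate 3. ZBTB37, beside GAS5, was higher in all 3 libraries, at 0.55, 0.52 and 1.09, and so did not follow GAS5, which was lower in replicate 3. TRAF7, beside SNHG19, had -0.52, -0.56 and -0.65, all lower and smaller in size than those of SNHG19. SEMA5A, a semaphorin that starts 125 bases from SNHG18, was higher in all 3 replicates, at 0.71, 0.66 and 0.46, while SNHG18 was lower in all 3, at -0.42, -0.46 and -0.78. ZNFX1, beside ZFAS1, had -0.10, -0.23 and 0.51, and RPS2, beside SNHG9, had -0.45, -0.28 and -1.35, with replicate 3 lowest in both RPS2 and SNHG9.

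Coding genes that hold a snoRNA gave a setting for these values. Of 270 found by position, 228 were compared, and their median log2 differences were -0.13, -0.09 and -0.23 in replicates 1, 2 and 3. The 26 ribosomal protein genes among them, whose mRNAs carry the pyrimidine start, had medians of -0.57, -0.41 and -1.14, and 0 of the 26 had a mean above 0. Their median of the mean, -0.68, was -0.53 without replicate 3 and -0.35 after trend removal. In the 28 SNHG-type hosts, 10 means were above 0, beside 7744 of the 15880 compared genes. Differences in replicates 1 and 2 spread widely in the SNHG-type hosts, from -2.22 to 2.10, as the plot of gene lists shows. The 9 other noncoding hosts that were compared had medians of 0.08, 0.27 and 0.23.

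**Figure D4:**
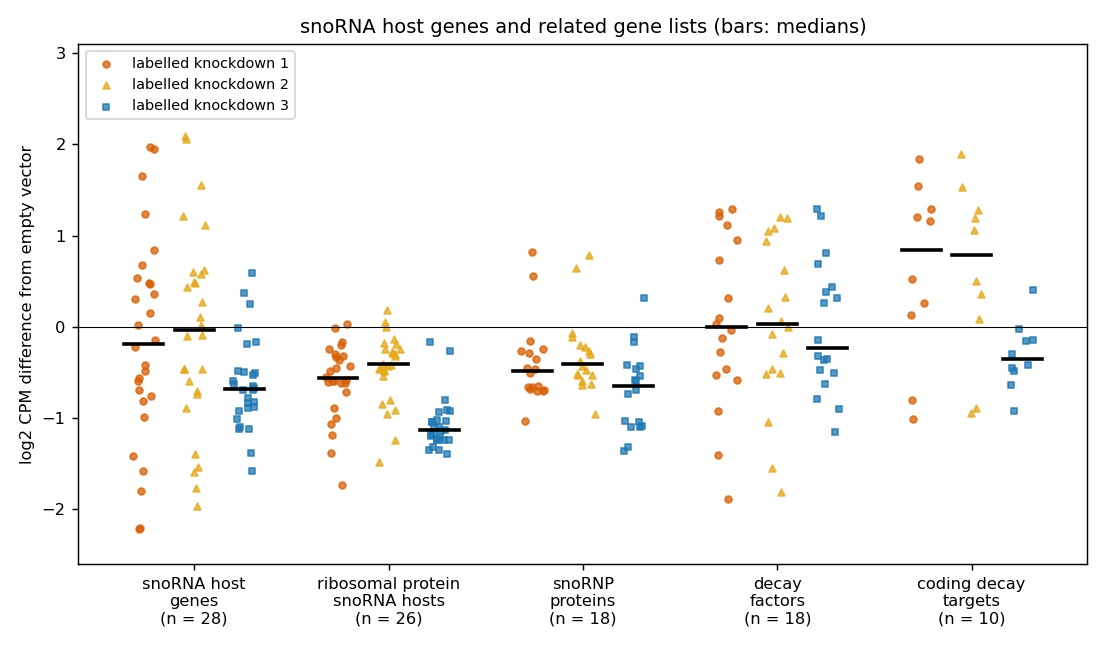
Log2 CPM difference from the control for the compared genes of 5 lists, by labelled knockdown library, with bars at the medians. The SNHG-type host genes spread to both sides of 0 in replicates 1 and 2, the ribosomal protein hosts have medians of -0.57, -0.41 and -1.14, and the coding decay targets have medians of 0.84, 0.78 and -0.36.

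Over 18 core and assembly proteins of snoRNA particles the median log2 differences were -0.48, -0.41 and -0.65, and 2 means were above 0. By the 1.5-fold rule 2 were lower in all 3 libraries, near the background of 9.61%, and 0 higher (background 10.0%). The median of the mean was -0.58, and -0.48 without replicate 3. The lowest were NHP2, a core protein of H/ACA particles, at 26 CPM against 12.7, 13.4 and 12.2 CPM, and RUVBL2, an assembly ATPase, at 121 CPM against 75.1, 86.9 and 48.3 CPM. The highest were ZNHIT6, which helps assemble box C/D particles, at 39.9 CPM against 70.7, 68.8 and 49.8 CPM, and NOP58, a core box C/D protein, at 171 CPM against 252, 266 and 114 CPM. NOP58 was above the control in replicates 1 and 2 and below it in replicate 3, as were 12 of the 28 host genes.

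Nonsense-mediated decay factors lay on both sides of the control. Of 18, 2 were at least 2-fold higher in all 3 libraries (background 3.65%) and 0 lower (background 2.72%). At 1.5-fold, 4 were higher (background 10.0%) and 2 lower (background 9.61%). SMG1, the kinase of UPF1 and a gene with near-identical copies that make its counts uncertain, had 165 CPM against 384, 377 and 403 CPM, and SMG6, the endonuclease of the pathway, had 12 CPM against 28.8, 24.9 and 27.9 CPM. The lowest were the exon junction proteins RNPS1, at 537 CPM against 144, 153 and 288 CPM, and EIF4A3, at 123 CPM against 46.4, 42 and 71.2 CPM. UPF1 itself had log2 differences of 0.03, 0.00 and 0.38. All 3 replicates lay on the same side of the control for SMG1, SMG6, RNPS1 and EIF4A3, as they did in 30.1% of all compared genes on the higher side and 34.2% on the lower side.

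The coding targets of the same decay pathway had medians above 0 in replicates 1 and 2 and below 0 in replicate 3. Their medians over 10 genes were 0.84, 0.78 and -0.36, with 5 at least 2-fold higher in both replicates 1 and 2 (background 9.54%) and 0 in all 3 (background 3.65%). The median of the mean was 0.43, and 0.77 without replicate 3. Those 5, named after their values were seen, were ATF3, GADD45A, GADD45B, DDIT3 and UPP1. DDIT3, a stress transcription factor, had 6.46 CPM against 23.2, 24.1 and 5.79 CPM, and UPP1, uridine phosphorylase, had 30.1 CPM against 73.7, 73.1 and 29.5 CPM. The lowest were TBL2, at 28.2 CPM against 16.1, 15.2 and 23 CPM, and ATF4, the factor that activates DDIT3 and ATF3 under stress, at 645 CPM against 319.7, 334 and 339 CPM. Several of these genes also respond to stress without any change in decay, so the list is not a measure of decay alone.

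Among 10 regulators of growth and of mRNAs with a pyrimidine start, 1 passed the 1.5-fold rule in all 3 libraries, LARP1, which binds that start, where 10.0% of all compared genes were that much higher. It was higher, at 372 CPM against 725, 671 and 784 CPM. RPTOR, a subunit of the mTOR complex, had 27.1 CPM against 27.5, 30.2 and 46.6 CPM. The lowest were EIF4EBP1, a translation repressor, at 185 CPM against 175, 184 and 57.4 CPM, and MYCN, at 170.5 CPM against 129, 133 and 177 CPM. MYC, outside the naming rule, had 108 CPM against 207, 197 and 58.2 CPM. It was above the control in replicates 1 and 2 and below it in replicate 3. That order was also seen in 12 of the 28 host genes and in the summed embryonal carcinoma markers. A link between MYC and any host gene was not tested.

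Markers of other cell types were summed beside these results. The 8 neural markers summed to 23.5 CPM in the control, against 76.9, 71.6 and 52.1 CPM in replicates 1, 2 and 3, with 6 of 8 compared, PAX6 at 0 in the control and NEUROD1 at 0 in replicates 2 and 3. The 7 fibroblast markers summed to 504 CPM in the control, against 693, 677 and 422 CPM in replicates 1, 2 and 3, 6 of them compared, with DCN at 0 in all but replicate 2. The 5 epithelial markers summed to 132 CPM in the control, against 98.7, 97.8 and 80.5 CPM in replicates 1, 2 and 3, 3 of them compared, with KRT5 at 0 in the control and KRT14 in replicate 3. The neural and fibroblast sums were highest in replicates 1 and 2, where SNHG1, SNHG11, SNHG15 and SNHG32 were also highest, and their part in those differences was not tested. In bulk RNA, more cells of a type and more RNA per cell cannot be told apart. Exons of 8 members overlap another gene on the same strand and those of 16 a gene on the other strand, and whether the counting used strand is not given in the sources used here.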

How the data were processed

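Total RNA of 4 NT2 libraries was depleted of ribosomal RNA and made into strand-marked libraries, per the labels' protocols. The authors deposited 1 table of unnormalized read counts per gene for each library. The tools named are STAR 2.7.11b, featureCounts 2.0.6 and DESeq2, with builds hg38 and GRCh38, per the submitters' processing notes; annotation release and strand setting are not given in the sources used here. Of 62696 gene identifiers, 58269 matched GENCODE 29 and 4427 did not; lengths and positions come from the matched ones, 4 of the 32 host genes under another name.

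Counts were scaled with TMM factors (edgeR 4.0.16, R 4.3.3) and log2 CPM was taken with a prior count of 2. Genes with a mean of the 2 group means of at least 1 CPM were compared. With 1 control library, a gene was counted as 2-fold (or 1.5-fold) higher or lower when each replicate passed that fold in the same direction. edgeR's quasi-likelihood test on all genes left by filterByExpr was the test, with DESeq2 1.42.0 and limma 3.58.1 as alternatives. Counting intervals are exact Clopper-Pearson intervals at 95%, on counts divided by 2 because 65.2% to 68.0% of counts above 0 were even numbers; they cover counting error only. On simulated counts with 200 genes changed 4-fold, the 2-fold rule found 97.5% and made 51 false calls among 15876 genes. The simulation gave every gene the same setting for spread and treated the 3 replicates alike. Replicate 3 stood apart in the data, so these figures do not measure how the rule performed on them.

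Named with full values were GAS5, EPB41L4A-AS1, ZFAS1, DANCR, the 10 SNHG genes highest in CPM per kilobase and those past the 1.5-fold or 2-fold rule. So were the 2 highest and 2 lowest genes of each pathway list. SNHG5, SNHG11, SNHG15 and SNHG32 were added after their values were seen. SNHG4 and SNHG7 were also given in full, outside this rule. The members and lists were chosen with earlier results of these data known. RefSeq promoter sequences were matched by symbol.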

Additional observations from a re-analysis of the deposited data

How the results depend on the processing

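The median log2 difference of the 28 genes kept its direction under every scaling, prior count, level minimum, thinning and left-out replicate tried, from -0.50 without replicate 2 to -0.15 without replicate 3, and was -0.01 after removal of length and GC trends. Genes 2-fold lower in all replicates numbered 3. They numbered 1 with total-count scaling, 1 with upper quartile scaling and 0 after trend removal (backgrounds 1.97%, 2.54% and 1.45%). With replicate 1, 2 or 3 left out they numbered 3, 3 and 5 (backgrounds 3.25%, 3.65% and 5.97%). The 0 that were 2-fold higher became 1 by the mean alone (background 8.54%). Without replicates 1, 2 and 3 in turn they became 0, 0 and 4 (backgrounds 3.63%, 4.19% and 9.06%). At 1.5-fold, the 7 lower genes became 2 after trend removal (background 5.93%). The 0 higher genes became 4 by the mean alone (background 19.5%). With replicate 1, 2 or 3 left out they became 0, 0 and 5 (backgrounds 9.98%, 11.1% and 19.1%). In each case the highest number came without replicate 3. edgeR's 0 calls over all genes became 190 higher and 63 lower with DESeq2, and 10 to 5876 higher and 7 to 5301 lower with a replicate left out; host genes called were 0 to 11 higher and 0 to 13 lower. The cause was not tested. Mean differences changed sign in 5 of 28 genes after trend removal, 2 with total-count scaling, 1 with thinning and 1, 2 and 3 without replicates 1, 2 and 3. No paired analysis was possible because the control group has 1 library with no replicate number. Depth limits SNHG32 and SNHG31 most, with 13 and 29 counts in the control.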
